A study of Mus musculus with 23 samples.

Results

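Genes of DNA replication and cell division were followed in the brown adipose tissue (BAT) of mice kept at room temperature (RT) or moved to the cold. The set was a list of 35 symbols, among them the MCM helicase genes, nucleotide-supply enzymes, mitotic kinases and cyclins, spindle proteins and Mki67, and a member was measured if its symbol was in the table of normalized counts. Of the 35 genes, 20 were among the 14651 genes of that table, 11 of 11 for DNA replication, 5 of 14 for mitotic kinases, cyclins and their degradation, and 4 of 10 for the spindle, kinetochore and chromosomes. A gene entered the table if 6 or more of the 23 mice had 8 or more of its reads. A low gene could thus enter through the group in which it was high. The other 15, Top2a, Cdk1, Ccnb1, Ccnb2, Cdc20, Plk1, Aurkb, Birc5, Cdca8, Bub1, Kif11, Kif23, Cenpe, Cenpf and Tpx2, were not analysed here, so no value below stands for the whole list of 35.

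All animals were males on a C57BL/6 background, aged 8 to 12 weeks and homozygous for an Mcu allele with loxP sites around exon 2. The floxed line came from ES cells of mixed background and was crossed to C57BL/6 mice, short of full homogeneity. The strain name of the Cre line includes FVB. Control mice (Mcu[fl/fl]) carried no Cre, and BAT-Mcu-KO mice (Mcu[fl/fl];Ucp1-Cre, called KO here) also carried a Cre transgene driven by the Ucp1 promoter, which acts in brown adipocytes and not in the other cells of the tissue. Tissue came from 6 control and 6 KO mice at RT, and from 5 control and 6 KO mice after 6 h at 4°C. Mice in the cold were housed singly and had no food unless the study says otherwise, so cold and lack of food cannot be told apart where the RT mice were fed. Mcu encodes the pore of the mitochondrial calcium uniporter, and the design asks what cold does to the tissue with and without it.

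A cell that is going to divide first licenses its origins of replication with the MCM helicase, a ring of 6 different subunits, and then raises the enzymes that make deoxynucleotides. E2F factors drive these genes late in G1, and a complex of MuvB with B-MYB and FOXM1 drives the mitotic genes later, through a promoter element called the CHR. Mature brown adipocytes rarely divide, and in whole BAT the cycling cells are mostly preadipocytes, endothelial cells and immune cells. Because whole tissue was sequenced, fewer cycling cells and less RNA per cell cannot be told apart.

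The promoters below are those of MCM genes whose cold fold changes differed in sign, of Rrm1, which rose, and of Ube2c and Mki67 from the mitotic genes. Each runs from 200 bases before to 30 bases after the transcription start, 5′ to 3′, from RefSeq on GRCm38.p6, and 17 of the 20 measured members had a promoter window there. Capitals mark a match to an E2F element (TTTGGCGC, TTTGCCGC, TTTCGCGC or TTTCCCGC) or to the CHR (TTTGAA) on either strand.
Mcm2 (chr6:88898751-88898980, - strand): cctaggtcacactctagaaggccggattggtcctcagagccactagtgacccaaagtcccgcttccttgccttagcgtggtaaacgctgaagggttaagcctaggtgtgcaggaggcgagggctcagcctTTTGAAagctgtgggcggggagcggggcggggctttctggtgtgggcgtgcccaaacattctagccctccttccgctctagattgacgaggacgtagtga
Mcm3 (chr1:20820283-20820512, - strand): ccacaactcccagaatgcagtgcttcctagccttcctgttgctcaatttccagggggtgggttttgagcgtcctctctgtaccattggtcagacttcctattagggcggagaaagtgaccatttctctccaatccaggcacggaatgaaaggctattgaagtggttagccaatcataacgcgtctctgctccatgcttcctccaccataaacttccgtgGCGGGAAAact
Mcm6 (chr1:128359676-128359905, - strand): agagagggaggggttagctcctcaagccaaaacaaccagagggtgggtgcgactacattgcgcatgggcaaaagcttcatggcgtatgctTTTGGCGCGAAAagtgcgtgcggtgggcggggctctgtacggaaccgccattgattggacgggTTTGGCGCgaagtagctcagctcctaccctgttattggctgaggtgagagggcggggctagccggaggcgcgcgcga
Mcm7 (chr5:138171854-138172083, - strand): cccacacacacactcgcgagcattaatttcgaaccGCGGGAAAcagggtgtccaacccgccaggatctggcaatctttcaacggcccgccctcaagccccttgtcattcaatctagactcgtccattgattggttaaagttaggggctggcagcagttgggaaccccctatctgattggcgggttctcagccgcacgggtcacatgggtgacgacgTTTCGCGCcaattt
Rrm1 (chr7:102441495-102441724, + strand): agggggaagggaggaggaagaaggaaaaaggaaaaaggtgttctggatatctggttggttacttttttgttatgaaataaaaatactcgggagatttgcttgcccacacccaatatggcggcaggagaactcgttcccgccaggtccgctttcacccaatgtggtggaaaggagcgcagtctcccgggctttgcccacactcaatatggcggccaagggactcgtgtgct
Ube2c (chr2:164769729-164769958, + strand): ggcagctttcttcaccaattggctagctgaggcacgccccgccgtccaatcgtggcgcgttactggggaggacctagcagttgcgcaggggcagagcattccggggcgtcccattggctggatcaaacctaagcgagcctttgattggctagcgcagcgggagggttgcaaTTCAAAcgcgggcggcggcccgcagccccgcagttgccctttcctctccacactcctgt
Mki67 (chr7:135716350-135716579, - strand): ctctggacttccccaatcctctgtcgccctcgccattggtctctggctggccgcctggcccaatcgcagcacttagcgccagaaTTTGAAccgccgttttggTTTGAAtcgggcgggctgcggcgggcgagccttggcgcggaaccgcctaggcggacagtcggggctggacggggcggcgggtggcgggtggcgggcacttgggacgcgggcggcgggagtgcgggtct

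In windows of 250 bases before to 50 after the start, an E2F spelling stood in 4 of the 5 MCM genes with a window (Mcm3, Mcm5, Mcm6 and Mcm7), in none of the other 12 members and in 2.26% of 32851 promoter windows. In Mcm6 the spellings TTTGGCGC and, on the other strand, TTTCGCGC overlap in a single run of capitals. The CHR letters stood in 7 of the 17 members, Mcm2, Ube2c, Aurka, Bub1b, Cdca3, Prc1 and Mki67, and in 17.9% of all windows. CCAAT, the letters bound by NF-Y, stood in 14 of 17 members and in 37.4% of all windows. Rrm1 held no E2F spelling and no CHR, and a second E2F match of Mcm3 lies past the printed bases. These matches describe letters only.

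The labels held in the checks that the counts allow. The normalized count of Mcu at RT was 110 ± 22.5 (mean ± SD, as throughout, n = 6) for control and 35.1 ± 10.03 (n = 6) for KO mice, and at 4°C 107 ± 26.8 (n = 5) and 33.9 ± 6.60 (n = 6), with no overlap between genotypes, and reads outside exon 2 count on Mcu too. Ucp1 was 2.58-fold higher at 4°C in control and 2.78-fold higher in KO mice. The reads counted per mouse ranged from 7129271 to 21006347. Control mice 1, 2 and 3 at 4°C, with 7129271, 8749379 and 10492967, were below every control mouse at RT (11724234 or more). The summed normalized count of 5 skeletal muscle markers ranged from 6.22 to 41362 between mice, and 0 of the 5 were called by cold in either genotype (limma, 0 also at an unadjusted p under 0.05). The 6 brown adipocyte markers, Ucp1 among them, summed to 114587 to 157866 at RT and 205152 to 256036 at 4°C without overlap, and 3 were called higher and 3 lower in control, and 2 higher and 1 lower in KO mice. All 5 endothelial markers summed to 2554 to 3851 at RT and to 4380 to 7479 at 4°C, with no marker at 0 in any mouse. Only 2 of the 5, Pecam1 and Kdr, were called, both higher in both genotypes. In each genotype 1 marker had a log2 fold change below 0 (-0.13 in control and -0.14 in KO mice). Of 5 macrophage markers, 0 were called (limma, 0 also at an unadjusted p under 0.05) in control and 3 were higher at 4°C in KO mice, and of 4 lymphocyte markers only Cd79a was measured. Cd79a, of the B-cell receptor, was at 4.65 to 16.9 at RT and 0 to 4.17 at 4°C in KO mice and was called lower there (log2 fold change -1.91, limma adjusted p = 0.00691), and at 1.94 to 17.9 and 0 to 6.41 in control mice it was not called (-0.77, adjusted p = 0.294). The mice at 4°C alone would not have met the read filter for Cd79a. It thus entered through mice at RT, where it was higher, and its fall is tied to that filter. Of 5 preadipocyte and fibroblast markers 1 was called lower in control, and 1 higher and 1 lower in KO mice. The part of these markers in the results below was not tested.

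The members were low in BAT. Together the 20 genes took 677 to 1953 reads of a mouse, and 12 of them had a mean normalized count under 20. Levels were also divided by exonic length, the union of the exons of all annotated transcripts. The median of the members then stood at the 15.7th percentile of 13761 genes with a known length in control mice at RT, and 17 of 20 were below the median gene. Pcna, the sliding clamp of the polymerases, was the highest at 51.1 normalized counts per kb, followed by Mcm7 (30.9 per kb), Rrm1 (27.5 per kb) and Mcm4 (25.9 per kb). The union can be longer than a transcript, so this order depends on the annotation. Before division Rrm1 had 303 and Pcna 123 normalized counts in these mice, over 11012 and 2400 exonic bases. Mki67, the usual marker of cycling cells, was the lowest at 0.416 per kb and had 0 to 18 reads in a mouse. With so few reads, 3 reads or fewer were taken as the floor, and Ccna2 was at or under it in 8 mice, Mki67 in 7 and Cdca3 in 5.

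By 6 h of cold in control mice, limma on log2(normalized count + 1) with Benjamini-Hochberg adjustment over 14651 genes called 7 of the 20 genes, 1 higher and 6 lower, where 46.0% of all genes were called, 22.3% higher and 23.7% lower. In KO mice 6 of 20 were called, 2 higher and 4 lower, against 43.3% of all genes, 21.4% higher and 21.9% lower. Read against these shares, the counts of 7 and 6 were not above the background. Among these calls, Cdca3 and Ube2c (lower in control) and Ccna2 (higher in KO mice) met the read filter only through the temperature at which they were high. The called genes in both genotypes were Rrm1, Mcm4, Mcm7 and Pcna, 57.1% of those called in control and 66.7% of those called in KO mice, each in the same direction. The same shares were not computed over all genes, so they are not read as a trait of the members. The median log2 fold change was -0.37 in control and -0.32 in KO mice, beside -0.02 and -0.02 over all genes. The temperatures did not overlap for 5 of the 20 members in control and 3 in KO mice. Over all 14651 genes this held for 3697 and 3552, so the lack of overlap given below is not read as a trait of the members. Without KO mouse 3 at RT, 3 members were called in that genotype, and after quantile normalization 6 were, 4 higher and 2 lower. DESeq2 and edgeR on the recovered reads each called 6 members in control and 5 in KO mice.

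**Figure D1:**
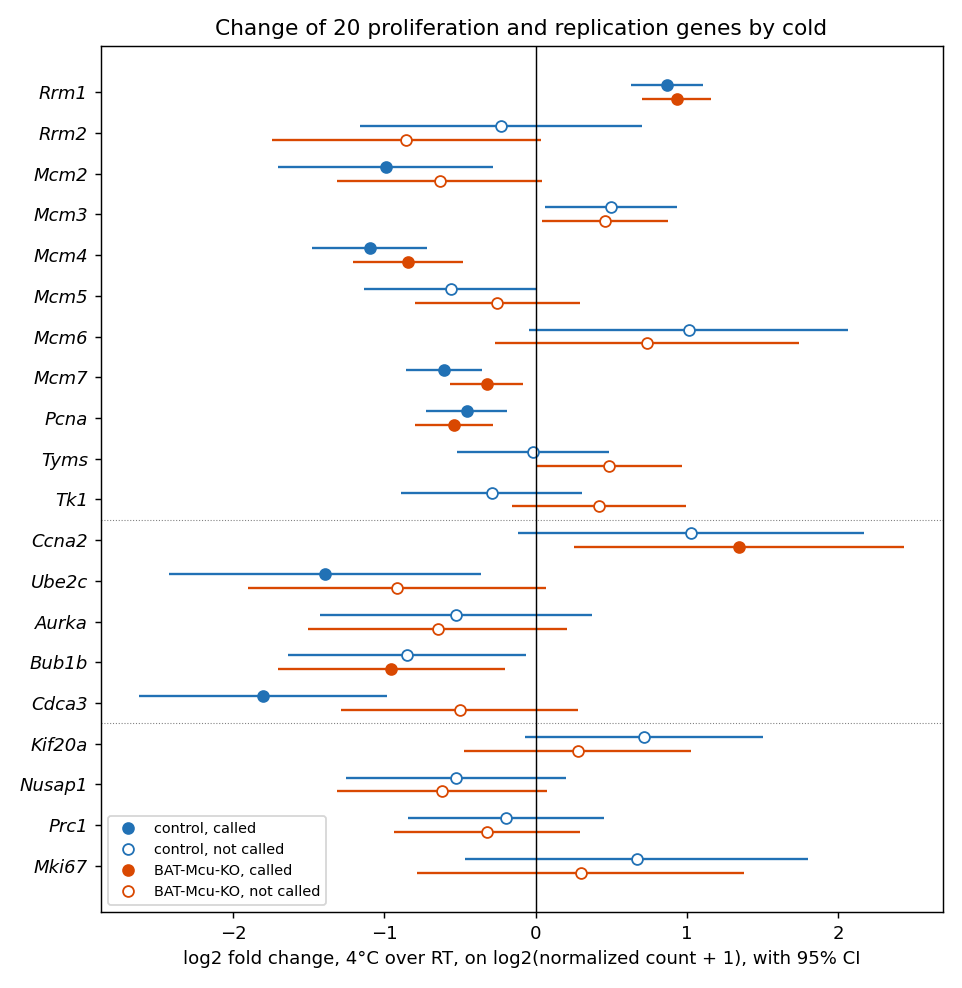
Log2 fold change by cold (4°C over RT, on the log2(normalized count + 1) scale) of the 20 measured genes in control and KO mice, with 95% confidence intervals. Filled points passed an adjusted p of 0.05, and dotted lines part DNA replication, mitotic kinases and cyclins, and spindle genes. Rrm1 stands at 0.87 and 0.93 while Mcm4, Mcm7 and Pcna lie below 0 in both genotypes, and most intervals of the 9 lowest rows are wide.

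Rrm1 rose by cold in both genotypes. It encodes the large, catalytic subunit of ribonucleotide reductase, the enzyme that makes deoxynucleotides. The control mice had normalized counts of 312, 299, 321, 275, 282 and 331 at RT and 668, 563, 612, 468 and 478 at 4°C. The lowest mouse at 4°C was above the highest at RT, and the same held in KO mice, with a range of 256 to 377 and a median of 284 at RT and of 479 to 709 with a median of 561 in the cold. The log2 fold change was 0.87 (SE 0.12, limma adjusted p = 1.13e-06) in control and 0.93 (SE 0.11, limma adjusted p = 1.86e-07) in KO mice. No alternative and no mouse left out ended either call.

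The small subunits that Rrm1 works with were not called higher. Rrm2, the S-phase subunit, had 13.4 ± 6.77 at RT and 11.1 ± 5.38 at 4°C in control mice, and 18.6 ± 7.47 and 11.9 ± 9.49 in KO mice. It passed the test in neither genotype (log2 fold change -0.23 and -0.85, limma adjusted p = 0.707 and 0.115), and it was called lower in KO mice without mouse 3 at 4°C (adjusted p = 0.0284). Rrm2b, the subunit used outside S phase and for mitochondrial DNA, is no member, and its values were added after they were seen. It was called lower in both genotypes, with log2 fold changes of -0.51 and -0.42 (limma adjusted p = 0.0067 and 0.0193). The log2 ratio of Rrm1 to Rrm2b, chosen after its values were seen, was 0.34 to 1.44 in control mice at RT and 1.96 to 2.41 at 4°C, and 0.36 to 0.86 and 1.68 to 2.22 in KO mice. RT and 4°C did not overlap in either genotype. The ratio of Rrm1 to Rrm2 did overlap in both, at 3.47 to 5.81 and 4.71 to 6.67 in control and 2.99 to 4.49 and 4.39 to 7.30 in KO mice, with means 1.10 and 1.79 higher in the cold.

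Tyms and Tk1, which supply thymidylate by synthesis and by salvage, did not pass the test. Tyms had 71.5 ± 21.4 and 72.4 ± 27.3 in control mice at RT and 4°C and 68.5 ± 21.2 and 94.6 ± 21.7 in KO mice. Its log2 fold change was -0.02 in control, where the sign turned under quantile normalization (0.06), and 0.49 in KO mice (limma adjusted p = 0.0937), where it passed without mouse 5 at RT (0.0360) and after quantile normalization (0.0486). Tk1 had log2 fold changes of -0.29 and 0.42 (limma adjusted p = 0.436 and 0.237). The groups of both genes overlapped.

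The 6 subunits of the MCM helicase, which are needed in equal number in the ring, had cold fold changes of both signs. Mcm4 fell, with the smallest p of the 6. Its normalized counts in control mice were 85.1, 99.9, 117, 76.2, 91.1 and 88.4 at RT and 40.5, 48.6, 54.8, 24.2 and 52.9 at 4°C. All mice at 4°C were below all mice at RT, and KO mice, at 86.4 to 125 (median 107) and 44.7 to 71.6 (median 57.8), showed the same without overlap. The log2 fold change was -1.10 (SE 0.18, limma adjusted p = 2.60e-05) in control and -0.85 (SE 0.18, limma adjusted p = 0.000352) in KO mice.

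Mcm7 also fell in both genotypes. It had 137 ± 18.9 at RT and 89.8 ± 14.6 at 4°C in control mice and 140 ± 10.5 and 112 ± 7.96 in KO mice, with no overlap between temperatures in either. The log2 fold changes were -0.61 (SE 0.12, limma adjusted p = 0.000235) and -0.32 (SE 0.12, limma adjusted p = 0.0279). The KO call was lost, with adjusted p-values of 0.0550 to 0.0622, without mouse 3 or 5 at RT or mouse 1 at 4°C, and at 0.0618 after quantile normalization. Exons of Mcm7 share 12.6% of their bases with Ap4m1, Cops6, Mir25 and Mir93, and counting ignored strand, so part of its reads is uncertain.

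Mcm2 was at 48.6, 22.3, 37.8, 21.8, 21.7 and 42.7 in control mice at RT and at 12.1, 7.59, 16.2, 18.4 and 26.5 at 4°C. Only mouse 5 at 4°C reached the range of the RT mice. The log2 fold change was -0.99 in control (SE 0.35, limma adjusted p = 0.0210) and -0.63 in KO mice (SE 0.33, limma adjusted p = 0.125), where the groups overlapped. The control call was lost without mouse 2 at 4°C (adjusted p = 0.0787), without mouse 1 at RT (0.0545) or after quantile normalization (0.0511), and the gene was called in KO mice without mouse 1 at RT (0.0431). Mcm5, with 19.9 ± 4.71 and 13.3 ± 3.85 in control mice, did not pass in control (log2 fold change -0.56, limma adjusted p = 0.103; 0.0451 without mouse 2 at RT) or in KO mice (-0.25, adjusted p = 0.471).

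Mcm3 and Mcm6 had fold changes of the opposite sign. Mcm3 was at 37.2, 62.1, 89.7, 39.2, 55.9 and 53.6 in control mice at RT and at 101, 62.2, 74.7, 74.9 and 74.6 at 4°C. Mouse 3 at RT lay within the range of the mice at 4°C, and all others at RT lay below it. The log2 fold changes were 0.50 (95% CI 0.06 to 0.94, limma adjusted p = 0.0565) and 0.46 (95% CI 0.04 to 0.87, limma adjusted p = 0.0700), short of the threshold in both genotypes. Mcm3 passed in control mice without mouse 3 at RT (adjusted p = 0.0119), without mouse 2 at 4°C (0.0422), after quantile normalization (0.0346) or among genes with a mean of 20 or more (0.0498). In KO mice it passed after quantile normalization (0.0212) and without mouse 1 or 5 at RT, mouse 4 at 4°C or control mouse 3 at RT (0.0439 to 0.04998).

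Mcm6 had the largest standard error of the 6 subunits. At RT the control mice spanned 5.82 to 65.2 with a median of 38.0, and in the cold 31.6 to 105 with a median of 66.0. KO mice spanned 8.96 to 62.3 at RT and 18.4 to 65.1 in the cold. The log2 fold changes were 1.01 (95% CI -0.04 to 2.07, limma adjusted p = 0.110) and 0.74 (95% CI -0.27 to 1.74, limma adjusted p = 0.236), and the groups overlapped in both genotypes. In the fit with a replicate block, Mcm6 passed in control mice at 1.11 (limma adjusted p = 0.0412). The order of the subunits per kb of exon depends on the annotated lengths. In control mice at RT it was Mcm7 (30.9), Mcm4 (25.9), Mcm3 (15.0), Mcm6 (8.15), Mcm5 (4.99) and Mcm2 (4.67). At 4°C it was Mcm3 (20.7), Mcm7 (20.3), Mcm6 (14.0), Mcm4 (12.3), Mcm5 (3.32) and Mcm2 (2.32). In KO mice the order was Mcm7 (31.6), Mcm4 (29.2), Mcm3 (11.9), Mcm6 (6.66), Mcm2 (5.56) and Mcm5 (5.31) at RT, and Mcm7 (25.2), Mcm3 (16.4), Mcm4 (16.3), Mcm6 (10.1), Mcm5 (4.39) and Mcm2 (3.71) at 4°C, so Mcm3 stood first and Mcm6 above Mcm4 in the cold in control mice and not in KO mice.

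The log2 ratio of Mcm4 to Mcm3 within a mouse, on log2(normalized count + 1), was chosen after its values were seen. The control mice had 1.17, 0.68, 0.38, 0.94, 0.69 and 0.71 at RT, against -1.301, -0.35, -0.44, -1.59 and -0.49 in the cold. The KO mice had 0.91, 1.28, 1.41, 1.92, 0.65 and 1.24 at RT, against -0.11, -0.43, -0.14, 0.39, 0.13 and -0.25 in the cold. Mcm4 exceeded Mcm3 in each of the 12 mice at RT and in 2 of the 11 mice in the cold, and the temperatures did not overlap within either genotype. The ratio of Mcm4 to Mcm6 was 0.27 to 3.89 at RT and -1.36 to 0 at 4°C in control mice, without overlap, and 0.47 to 3.66 and -0.43 to 1.53 in KO mice, which overlapped.

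**Figure D2:**
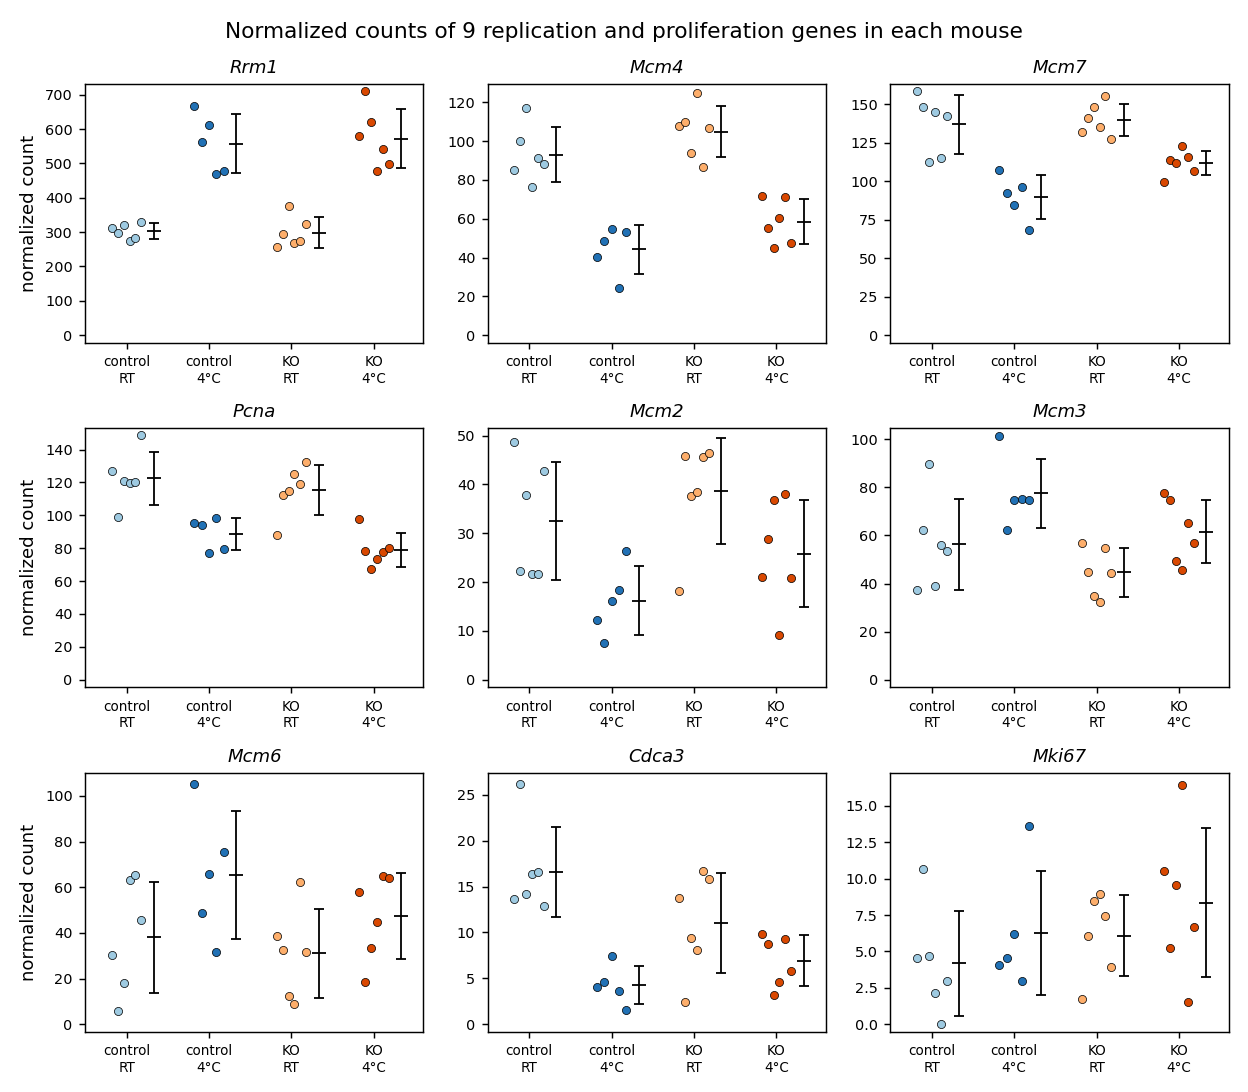
Normalized counts (y axis, from 0) of Rrm1, Mcm4, Mcm7, Pcna, Mcm2, Mcm3, Mcm6, Cdca3 and Mki67 in each mouse, by genotype and temperature. Points are mice, and the bars beside them give the mean ± SD. Within each genotype, Rrm1 is higher and Mcm4 lower in every mouse at 4°C than in every mouse at RT, whereas the mice of Mcm6 and Mki67 spread over overlapping ranges.

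Pcna fell in both genotypes. It had 123 ± 16.1 at RT and 88.8 ± 9.80 at 4°C in control mice, where the temperatures did not overlap, and 115 ± 15.2 and 79.0 ± 10.4 in KO mice, where mouse 1 at RT (88.0) lay among the mice at 4°C. By cold the log2 fold change was -0.46 (SE 0.13, limma adjusted p = 0.00586) in control and -0.54 (SE 0.13, limma adjusted p = 0.00108) in KO mice. Neither call was ended by an alternative or by leaving out a mouse.

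Among the 5 mitotic kinases, cyclins and partners, Cdca3 had the smallest p by cold in control mice. It encodes an F-box-like protein that serves the degradation of the mitotic inhibitor Wee1. The control mice had 13.7, 26.2, 14.2, 16.3, 16.6 and 12.9 at RT and 4.05, 4.55, 7.47, 3.67 and 1.60 at 4°C, which was 2 to 6 reads in a mouse at 4°C. All mice at 4°C were below all at RT, with a log2 fold change of -1.80 (SE 0.40, limma adjusted p = 0.000598). The control mice at RT, with 13 to 27 reads each, met the read filter alone, and the mice at 4°C would not have met it. Cdca3 was thus measured only through mice in which it was high, and its fall is tied to that filter. In KO mice it had 11.03 ± 5.45 and 6.92 ± 2.77, and a log2 fold change of -0.50 did not pass (limma adjusted p = 0.305). The difference of the 2 cold effects, 1.299 on the log2 scale (95% CI 0.16 to 2.43, unadjusted p = 0.0265), had an adjusted p of 0.801 in limma, so a difference between the genotypes was not shown.

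Ube2c, the ubiquitin-conjugating enzyme of the anaphase-promoting complex, was called in control mice. Its values were 24.3, 13.6, 10.4, 6.53, 7.25 and 4.97 at RT and 0, 7.59, 1.24, 11.02 and 4.01 at 4°C, and the temperatures overlapped. Mice 1 and 3 at 4°C, at 0 and 1 read, were sequenced less deeply than every control mouse at RT. The mice at 4°C alone would not have met the read filter, so Ube2c was measured only through mice at RT. The log2 fold change was -1.39 in control (SE 0.50, limma adjusted p = 0.0253) and -0.92 in KO mice (limma adjusted p = 0.126). The control call was lost with DESeq2 (adjusted p = 0.0732), edgeR (0.0869), a pseudocount of 10 (0.0610), quantile normalization (0.0689) and only the compared groups (0.0816), and without mouse 1 at RT (0.0716) or mouse 1 or 3 at 4°C (0.114 and 0.0746). In KO mice it was called with a pseudocount of 10 (0.0453) and with only the compared groups (0.0282). Exons of Ube2c share 22.8% of their bases with Tnnc2, a muscle troponin gene, so its counts are uncertain, and with the muscle markers as a covariate the control value was -1.40 (limma adjusted p = 0.0067).

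Ccna2 and Bub1b were called in KO mice. Ccna2, the cyclin of S phase and G2, had 5.65 ± 4.88 at RT and 13.0 ± 6.84 at 4°C in KO mice, a log2 fold change of 1.35 (SE 0.53, limma adjusted p = 0.0419), and 4.20 ± 2.87 and 9.94 ± 5.63 in control mice, a log2 fold change of 1.03 (SE 0.56, limma adjusted p = 0.135). The temperatures overlapped in both genotypes, and 12.5% of its exonic bases are shared with Exosc9. Ccna2 had 0 to 13 reads at RT and 6 to 18 at 4°C in KO mice, and 2 to 9 and 2 to 22 in control mice. The mice at RT alone would not have met the read filter, so Ccna2 was measured only through mice at 4°C, where it was high, and its rise is tied to that filter. The KO call was lost with DESeq2 (0.0658), edgeR (0.0842), only the compared groups (0.0665) and, with adjusted p-values of 0.0528 to 0.139, without any of mice 1 to 4 at RT or 2 to 5 at 4°C.

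Bub1b, the spindle-checkpoint kinase BUBR1, had 22.2 ± 7.70 and 10.7 ± 2.74 in KO mice and 19.1 ± 6.14 and 12.2 ± 9.29 in control mice. The log2 fold change was -0.95 in KO (SE 0.36, limma adjusted p = 0.0360) and -0.85 in control mice (SE 0.38, limma adjusted p = 0.0722). The KO call was lost after quantile normalization (0.0701) and, at 0.0519 to 0.0851, without mouse 1, 3, 4 or 5 at RT or mouse 1, 2 or 3 at 4°C. In control mice the gene was called without mouse 1 or 3 at 4°C or mouse 6 at RT (0.00975 to 0.0467) and after scaling to the 75th percentile (0.0432). Aurka, a kinase of the spindle poles, had log2 fold changes of -0.53 and -0.65 and did not pass in either genotype (limma adjusted p = 0.339 and 0.221).

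No spindle, kinetochore or chromosome gene was called by cold. Kif20a, a kinesin of the late spindle, had 7.597, 5.82, 2.83, 8.70, 5.18 and 4.97 in control mice at RT and 14.2, 19.7, 16.2, 3.67 and 4.81 at 4°C, so 3 of 5 mice at 4°C lay above and 2 within the RT range. Its log2 fold change was 0.72 (limma adjusted p = 0.131; 0.0313 without mouse 4 at 4°C) and 0.28 in KO mice (adjusted p = 0.575). Kif20a shares 29.3% of its exonic bases with Cdc23. Nusap1, which binds spindle microtubules, had 16.7, 29.1, 19.8, 15.2, 13.5 and 13.9 at RT and 10.1, 16.7, 12.45, 5.88 and 17.6 at 4°C in control mice, with overlap and log2 fold changes of -0.53 and -0.62 (limma adjusted p = 0.231 and 0.144).

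Mki67 gave no call in either direction. Control mice had 4.56, 10.7, 4.72, 2.18, 0 and 2.98 at RT and 4.05, 4.55, 6.22, 2.94 and 13.6 at 4°C. KO mice had 1.73, 6.03, 8.45, 8.96, 7.44 and 3.95 at RT and 10.5, 5.26, 9.59, 16.5, 1.55 and 6.67 at 4°C. The 4 groups overlapped throughout. The log2 fold changes by cold were 0.67 (95% CI -0.46 to 1.80) and 0.30 (95% CI -0.78 to 1.38), intervals that include 0 and values above 1 (limma adjusted p = 0.337 and 0.682). Prc1, which bundles the microtubules of the central spindle, had -0.19 and -0.32 (limma adjusted p = 0.640 and 0.412).

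Averaged over the 20 measured genes, the mean log2(normalized count + 1) of a mouse was 4.69 ± 0.09 in control mice at RT and 4.45 ± 0.12 at 4°C, which did not overlap (4.56 to 4.80 and 4.28 to 4.54). In KO mice the mean was 4.75 ± 0.18 and then 4.63 ± 0.14, which overlapped (4.48 to 4.93 and 4.48 to 4.82). The average over all genes was 6.66 ± 0.02 and 6.63 ± 0.05 in control mice. The 11 DNA replication genes differed by -0.17 in control and -0.04 in KO mice, the 5 mitotic kinases and cyclins by -0.71 and -0.34, and the 4 spindle genes by 0.17 and -0.09. The groups of each of these 3 means overlapped. These averages describe the mice and carry no test. Cdca3 and Ube2c, which met the read filter only at RT, enter the mean over the 20 genes and the mitotic mean. Ccna2, which met it only at 4°C, enters them too. The differences of both means by cold are thus tied in part to that filter.

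**Figure D3:**
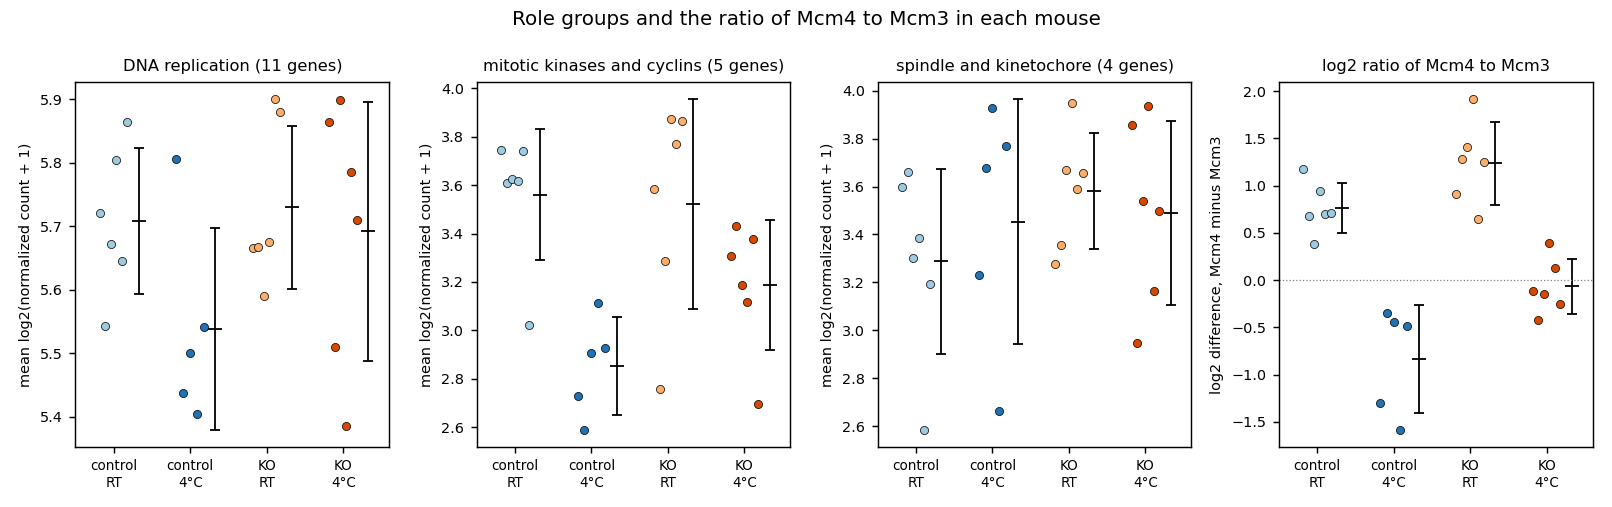
Mean log2(normalized count + 1) of each mouse over the DNA replication, mitotic and spindle genes, and the log2 ratio of Mcm4 to Mcm3, by genotype and temperature. Points are mice and bars the mean ± SD, and the y axes do not start at 0. The ranges at RT and 4°C overlap for the 3 gene groups and part for the ratio.

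No member passed the test by genotype at either temperature. These comparisons share their mice with those by cold. At RT 0 of 20 were called, against 0.0478% of all genes, and 1 had an unadjusted p under 0.05, against 5.15% of all genes. It was Kif20a, at 5.85 ± 2.08 in control and 11.1 ± 2.51 in KO mice (log2 fold change 0.86, unadjusted p = 0.0270, limma adjusted p = 0.940). Cdca3 (log2 fold change -0.70, adjusted p = 0.945) and Mcm3 (-0.30, adjusted p = 0.971) had the next smallest p-values. DESeq2 and edgeR on the recovered reads also called 0 members at RT, with 1 each at an unadjusted p under 0.05.

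At 4°C 0 of 20 were called, against 0.0751% of all genes, and 3 had an unadjusted p under 0.05, against 6.98% of all genes. They were Mcm7, at 89.8 ± 14.6 in control and 112 ± 7.96 in KO mice (log2 fold change 0.32, 95% CI 0.07 to 0.58, limma adjusted p = 0.591), Mcm4 (0.43, 95% CI 0.05 to 0.81, adjusted p = 0.675) and Ube2c (1.10, 95% CI 0.07 to 2.13, adjusted p = 0.682). The median log2 difference of the 20 genes at 4°C was 0.31, with 13 above 0 and 7 below, beside 0.01 over all genes. DESeq2 and edgeR called 0 members at 4°C, with 2 each at an unadjusted p under 0.05.

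For the difference of the cold effects between genotypes, limma called 0 of 20 members and 0.0% of all genes, with 1 member, Cdca3, at an unadjusted p under 0.05, against 5.99% of all genes. DESeq2 and edgeR called 0 members as well, with 1 each at an unadjusted p under 0.05. Tk1 (0.71 on the log2 scale, 95% CI -0.12 to 1.54, limma adjusted p = 0.850) and Mcm7 (0.28, 95% CI -0.07 to 0.63, adjusted p = 0.855) had the next smallest p-values. In 18 of 20 members, and in 86 of the 95 related genes described below, the cold fold change had the same sign in the 2 genotypes, which rest on different mice. This share was not computed over all genes, so it is not read as a result about the members.

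The surroundings of these genes were read from 10 lists with 121 other cell cycle and replication genes, of which 95 were measured. By cold 60 of 95 were called in control mice, 9 higher and 51 lower, and 61 in KO mice, 7 higher and 54 lower. Over all genes the shares were 46.0% in control (22.3% higher and 23.7% lower) and 43.3% in KO mice (21.4% and 21.9%), and they stand beside the counts of each of the 10 lists too. The median log2 fold change was -0.63 and -0.60, and 51 genes were called in both genotypes, 85.0% of those in control and 83.6% of those in KO mice. The share of calls common to both genotypes was not computed over all genes, so these percentages are not read as a trait of cell cycle genes. Low genes of these lists could also enter through the temperature at which they were high. Pole, at 0 to 5 reads in control and 0 to 12 in KO mice at 4°C, entered through mice at RT, as did Gins2. A fall of such a gene is tied to the read filter, and the counts of calls by direction include such genes.

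Genes of the step from G1 to S phase moved in both directions. Among the 8 G1 cyclins and CDKs, 1 was called higher and 4 lower in each genotype. Cdk6, a partner of the D cyclins, had log2 fold changes of -2.30 and -2.11, Cdk2 of -1.44 and -1.20, and its cyclin Ccne1 of -2.45 and -2.07 (largest limma adjusted p = 0.000787). Ccnd1, the D cyclin that follows growth signals, was the exception. Its control mice had 31.9, 35.9, 30.2, 30.5, 35.2 and 41.7 at RT and 30.3, 92.6, 47.3, 119 and 60.1 at 4°C, so 4 of 5 mice at 4°C were above all at RT and mouse 1 was not. KO mice spanned 17.9 to 34.5 at RT and 44.8 to 75.9 in the cold, without overlap. Its log2 fold change was 0.86 in control (SE 0.25, limma adjusted p = 0.0070) and 1.17 in KO mice (SE 0.24, limma adjusted p = 0.000309). Exons of Ccnd1 share 23.4% of their bases with a neighbouring gene.

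The CDK inhibitors split. Cdkn1a, the inhibitor induced by p53 and by stress, rose from a mean of 1453 to 5541 in control and from 1431 to 4936 in KO mice, with log2 fold changes of 2.00 and 1.82 (limma adjusted p = 1.41e-08 and 3.14e-08). Cdkn2c had log2 fold changes of -1.84 and -1.79 and Cdkn2d of -1.72 and -1.07, both inhibitors of the kinases of the D cyclins. Of 6 inhibitors measured, 1 was called higher and 4 lower in control, and 1 higher and 3 lower in KO mice.

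Among 11 E2F and pocket-protein genes, 3 were called higher and 3 lower in control, and 3 higher and 4 lower in KO mice. E2f2, an activating E2F, rose from 18.1 to 92.4 and from 11.5 to 71.9, and E2f7, a repressing E2F, had log2 fold changes of 1.06 and 1.26. Rbl1, the pocket protein p107, had -1.51 and -1.18. Of 5 genes of the MuvB list, Lin9 had log2 fold changes of -2.20 and -1.57, Lin52 of 0.55 and 0.35 and Lin54 of -0.47 and -0.51, and Mybl2 and Foxm1 were not among the genes measured. The Lin54 call was lost in control mice, at adjusted p-values of 0.0531 to 0.0941, without mouse 1, 3, 4 or 5 at RT or 2, 3, 4 or 5 at 4°C, and in KO mice, at 0.0555 to 0.0904, without mouse 2 or 4 at RT or 3 or 4 at 4°C. It was also lost after quantile normalization in both (0.0909 and 0.0802) and with only the compared groups in KO mice (0.0660).

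Most of the genes that load and fire origins or work at the fork were called lower. Of 16 origin genes 1 was called higher and 9 lower in control, and 0 higher and 9 lower in KO mice. Gmnn, which blocks relicensing, fell from 533 to 185 and from 552 to 193. Cdc7, the kinase that fires origins, had log2 fold changes of -1.90 and -1.66, and Gins1, of the active helicase, of -1.82 and -1.14. Of 17 fork genes 2 were called higher and 13 lower in control, and 1 higher and 12 lower in KO mice. Rfc3, of the clamp loader, had log2 fold changes of -2.48 and -1.81. Rpa2 and Rpa1, which coat single-stranded DNA, had -2.14 and -1.66 and -1.07 and -0.93.

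Nucleotide supply outside the members had 4 of 7 genes called lower and 0 higher in each genotype. Dtymk, the thymidylate kinase, had log2 fold changes of -0.98 and -0.55 and Tk2, the mitochondrial thymidine kinase, of -0.78 and -1.01. Of 4 genes of replicated chromatin, 1 was called in control and 2 in KO mice, all lower, and Uhrf1, which keeps DNA methylation on new strands, fell from 38.8 to 6.93 and from 59.4 to 7.35. The second call in KO mice was Dnmt1, the methyltransferase that copies methylation, named after its values were seen. It had 123 ± 14.2 at RT and 74.8 ± 18.4 at 4°C in KO mice, without overlap, and 94.6 ± 26.1 and 78.3 ± 24.7 in control mice, with log2 fold changes of -0.75 (limma adjusted p = 0.00390) and -0.28 (adjusted p = 0.293). Asf1b and Chaf1b, which place histones on new DNA and followed Uhrf1 by p in control mice, had log2 fold changes of -0.71 and -0.40 and of -1.01 and -1.31. Neither of these passed in limma. Chaf1b was called in KO mice by DESeq2 (adjusted p = 0.0227) and edgeR (0.0289), with only the compared groups (0.0303) or a pseudocount of 10 (0.0419) and without KO mouse 2 (0.0455) or control mouse 4 (0.0363) at RT, and in control mice without control mouse 4 at RT (0.0221). Asf1b was called in control mice after scaling to the 75th percentile (0.0371), with only the compared groups (0.0494) and without control mouse 2 or KO mouse 4 at 4°C (both 0.0219).

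Of 4 genes of the CDC25 and WEE1 family, 2 were called in control and 3 in KO mice, all lower. Wee1, the kinase that holds back mitosis, had log2 fold changes of -2.18 and -1.83. Cdc25a, a phosphatase that opposes it, had -0.47 and -0.39 (limma adjusted p = 0.0133 and 0.0340). The Cdc25a calls were lost without control mouse 1 or 2 at 4°C (adjusted p of 0.0516 and 0.0505) and, in KO mice, without mouse 2, 3, 5 or 6 at RT or 1, 4, 5 or 6 at 4°C (0.0531 to 0.0771) or after quantile normalization (0.0613). Cdc25b had -0.76 in control (limma adjusted p = 0.0651) and -0.997 in KO mice (adjusted p = 0.0128). In control mice it was called by DESeq2 (0.0181), edgeR (0.0326) and scaling to the 75th percentile (0.0360) and without mouse 6 at RT (0.0106) or mouse 3 at 4°C (0.0485).

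Among 17 other mitotic genes, 9 were called lower and 0 higher in control, and 11 lower and 0 higher in KO mice. Cenpa, the histone that marks centromeres, fell from 139 to 23.8 and from 131 to 23.8. Pttg1, or securin, had log2 fold changes of -0.74 and -0.45 and Mad2l1, of the spindle checkpoint, of -1.91 and -1.29.

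**Figure D4:**
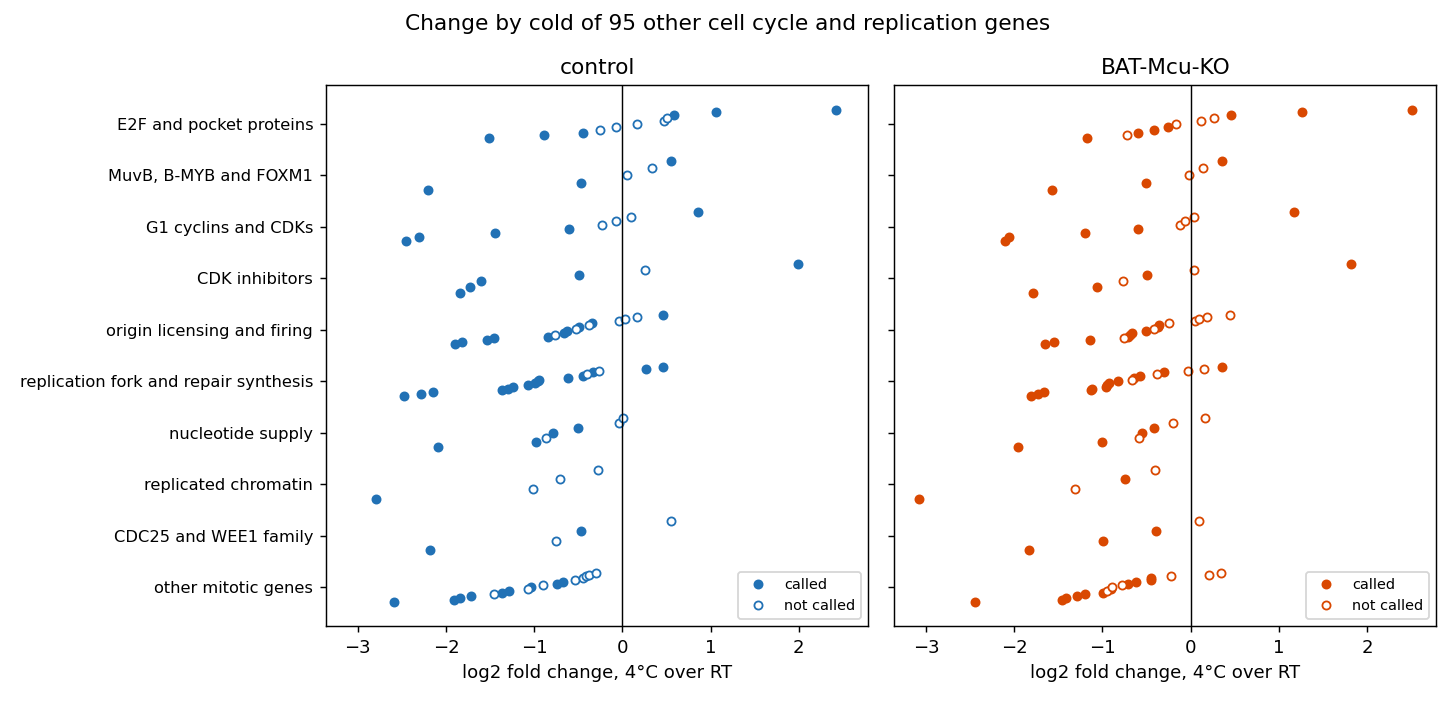
Log2 fold change by cold (x axis, 4°C over RT) of 95 other cell cycle and replication genes in 10 lists, in control (left) and KO mice (right). Each point is a gene, filled where the adjusted p was under 0.05. Most filled points lie below 0, and the right-hand exceptions in both panels include E2f2, Cdkn1a and Ccnd1.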

How the data were processed

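BAT RNA of 23 mice was sequenced with a Smart-seq2 based protocol (2 x 25 bp reads). The authors aligned reads to mm10 with STAR 2.4.0j and GENCODE M7 and counted unique exonic reads, irrespective of strand, with HTSeq. The deposited signal is the reads of a gene divided by the DESeq2 size factor of the mouse. A second deposited table holds the authors' own fold changes and p-values and was not used. Dividing by what 1 read was worth in each mouse gave whole numbers for 100.0% of values (tolerance 0.01), which were taken as the reads. Read numbers carry counting error only, since PCR copies are not independent molecules.

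Columns were matched to samples by name and 0 were left out. limma 3.58.1 (R 4.3.3, variance trend) was fitted to log2(normalized count + 1) with 4 group means over 23 mice, with Benjamini-Hochberg adjustment over 14651 genes and a threshold of 0.05. A fold change on this scale understates that of low genes. The labels do not name litters, so p-values measure the spread between these mice. The members and lists were chosen with earlier results of these data known. The rule for names was: members called by cold in either genotype, the 3 smallest p-values by genotype, at each temperature, and by interaction, mouse values for Mki67, Ccnd1 and 2 members a role, and 3 genes of smallest p a related list. A gene that this rule names is not reported here. Values of uncalled members, of every mouse for Mcm2 and Mcm3, and of Rrm2b, Dnmt1 and the ratios were added after they were seen. Gene lengths and overlaps come from GENCODE M21 (GRCm38), promoters from RefSeq.

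Alternatives were pseudocounts of 0.5 and 10, a mean of 20 or more, quantile and 75th percentile scaling, no trend, compared groups only, a replicate block, DESeq2 1.42.0, edgeR 4.0.16, each mouse left out and, chosen after seeing the data, 5 muscle markers as a covariate. The fits were tested on simulated data.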

Additional observations from a re-analysis of the deposited data

Results flagged for a closer look

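Each of 88 groups of 5 or 6 mice (20 members, Ccnd1 and the mean over members, in 4 groups) was searched for a mouse far from the rest by Dixon's test on log2 values, which chance flags in about 1 of 20 groups, and 3 were found. Mcm2 in KO mouse 1 at RT was 18.1 (21 reads), against 37.6 to 46.4 in the other mice of the group. Tk1 in KO mouse 3 at 4°C was 32.0 (20 reads), against 15.9 to 20.2. Cdca3 in control mouse 2 at RT was 26.2 (27 reads), against 12.9 to 16.6.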

How the results depend on the processing

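Over all alternatives but leaving out a mouse, the counts of called members and related genes stayed within 1.5 times their reported values. With each of the 23 mice left out, the members called by cold numbered 5 to 8 in control and 3 to 7 in KO mice, the related genes 54 to 62 in each genotype, and members called by genotype or interaction 0. Signs turned in 3 uncalled members in control mice. The log2 fold change of Tyms was 0.0559 after quantile normalization and -0.19 to 0.15 with each mouse left out, that of Prc1 -0.44 to 0.0103 and that of Rrm2 -0.46 to 0.0195. The causes were not tested. Scaling to the 75th percentile moved the median of all genes by cold to -0.13 in control and -0.07 in KO mice.

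Mice that share a replicate number are different animals. Their deviations did not pair by cold (mean r -0.029 and -0.0952) or by genotype at RT (mean r -0.0355). By genotype at 4°C all 5 pairs were positive (mean r 0.121, 0.0416 to 0.218). There 5 of 10 mice correlated best with the mouse of their own number, against 0 of 10 and 0 of 12 by cold and 1 of 12 by genotype at RT. What same-numbered mice at 4°C may share was not tested. With the number as a block, 8 members were called by cold in control, 2 higher and 6 lower (Mcm6 then passed, adjusted p = 0.0412, limma), and 6 in KO mice, 2 higher and 4 lower. Related genes numbered 58 and 59 (Lin54 was lost in control, 0.0662), and members by genotype or interaction 0. With the muscle markers as a covariate, 7 and 6 members were called. Of the 12 members with a mean under 20, 2 (16.7%) were called by cold in each genotype, beside 23.8% and 22.7% of the 3135 genes with a mean under 20 and 46.0% and 43.3% of all genes. The part of depth was not tested.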
